A study of Mus musculus with 6 samples.

Results

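The genes described are 10 enzymes that modify and cross-link collagen, measured by RNA sequencing in 6 mouse neurofibromas, which are benign growths of nerve. They are the 5 lysyl oxidases (Lox, Loxl1, Loxl2, Loxl3 and Loxl4), the 3 lysyl hydroxylases (Plod1, Plod2 and Plod3) and 2 alpha subunits of collagen prolyl 4-hydroxylase (P4ha1 and P4ha2), taken by symbol from a table of 24421 genes. All 10 passed the filter on low counts, as did 15604 genes in all. The set was chosen by a pattern in the same comparison that is described here, in which Lox was higher while Loxl2 was lower, so the members' values are given as a description without tests.

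Both groups were on a C57BL/6J background and carried Nf1fl/fl with DhhCre. The group miR155KO_Nf1KO had 3 tumours, MiRNC149, MiRNC640 and MiRNC670, whose genotype also included a knockout of miR-155. The group Nf1KO had 3 tumours, Nf803, Nf809 and Nf827, whose labels list no such knockout. Nf1 encodes neurofibromin, a brake on Ras signalling, and the Dhh promoter drives Cre in Schwann cell precursors. Deletion is therefore directed at the Schwann lineage, while fibroblasts, immune cells, vessels and axons within a tumour also contribute RNA. No drug was given, and the mice were kept to a time point or tumour size that the labels do not give as a number. The study compared the groups to look for miR-155 targets.

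Column totals ran from 13061129 to 16333181 reads. Mir155hg, the host transcript of miR-155, was at 0.201 ± 0.121 CPM (counts per 1000000 reads of the TMM-scaled library) in miR155KO_Nf1KO and at 4.32 ± 0.373 CPM in Nf1KO (SD, n = 3 each), whereas Nf1 was at 341 ± 43.3 and 324 ± 33.2 CPM and Dhh at 612 ± 55.6 and 627 ± 137 CPM in miR155KO_Nf1KO and Nf1KO. The Schwann cell markers were present in every tumour: Sox10, the lineage transcription factor, ran from 277 to 333 CPM in miR155KO_Nf1KO and from 215 to 263 CPM in Nf1KO. Whether each tumour came from its own mouse is not in the labels, so the p-values reflect only the spread among these samples.

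Collagen chains are hydroxylated in the endoplasmic reticulum before they fold. Prolyl 4-hydroxylase makes the hydroxyproline that stabilises the triple helix, and lysyl hydroxylases make the hydroxylysine that later anchors sugars and stable cross-links. Outside the cell, lysyl oxidases, which need copper, oxidise lysine and hydroxylysine to aldehydes that join neighbouring collagen or elastin molecules, which is what stiffens a matrix. Neurofibromas are rich in collagen, much of it made by their fibroblasts.

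Because the groups differ in miR-155, the microRNA's own sequence and its sites are shown first. The mature strand mmu-miR-155-5p (RefSeq, GRCm38.p6, chr16:84714143-84714165, plus strand) is printed 5′ to 3′ with its seed, bases 2 to 8, in capitals.
mmu-miR-155-5p: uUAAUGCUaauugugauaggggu
Sites that pair with this seed are AGCATTAA, of 8 bases, and the shorter AGCATTA and GCATTAA, of 7. None of these was found in the longest protein-coding 3′ UTR of any of the 10 enzyme genes (0 of 10, in UTRs of 387 bases for Plod3 to 3160 bases for Lox, GENCODE M21 on GRCm38). By the same search 1990 of 14040 tested genes with a 3′ UTR, or 14.2%, held at least one. The absence says only that these letters are not in these UTRs.

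Lox, the founding lysyl oxidase, was higher in miR155KO_Nf1KO, while 9 of the 10 genes, all but Lox, had a negative log2 fold change (miR155KO_Nf1KO over Nf1KO). In 9 of the 10 genes the values of the groups did not overlap, P4ha2 being the exception, against 32.6% of all tested genes. At an adjusted p under 0.05 over all genes (edgeR quasi-likelihood test), 1 member was called higher and 5 were called lower, where 5.22% of all tested genes were called higher, 4.74% lower and 9.96% in either direction. Since the members were taken on this comparison, nothing is read from these counts. The median log2 fold change of the members was -0.62, beside 0.01 over all genes tested.

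**Figure D1:**
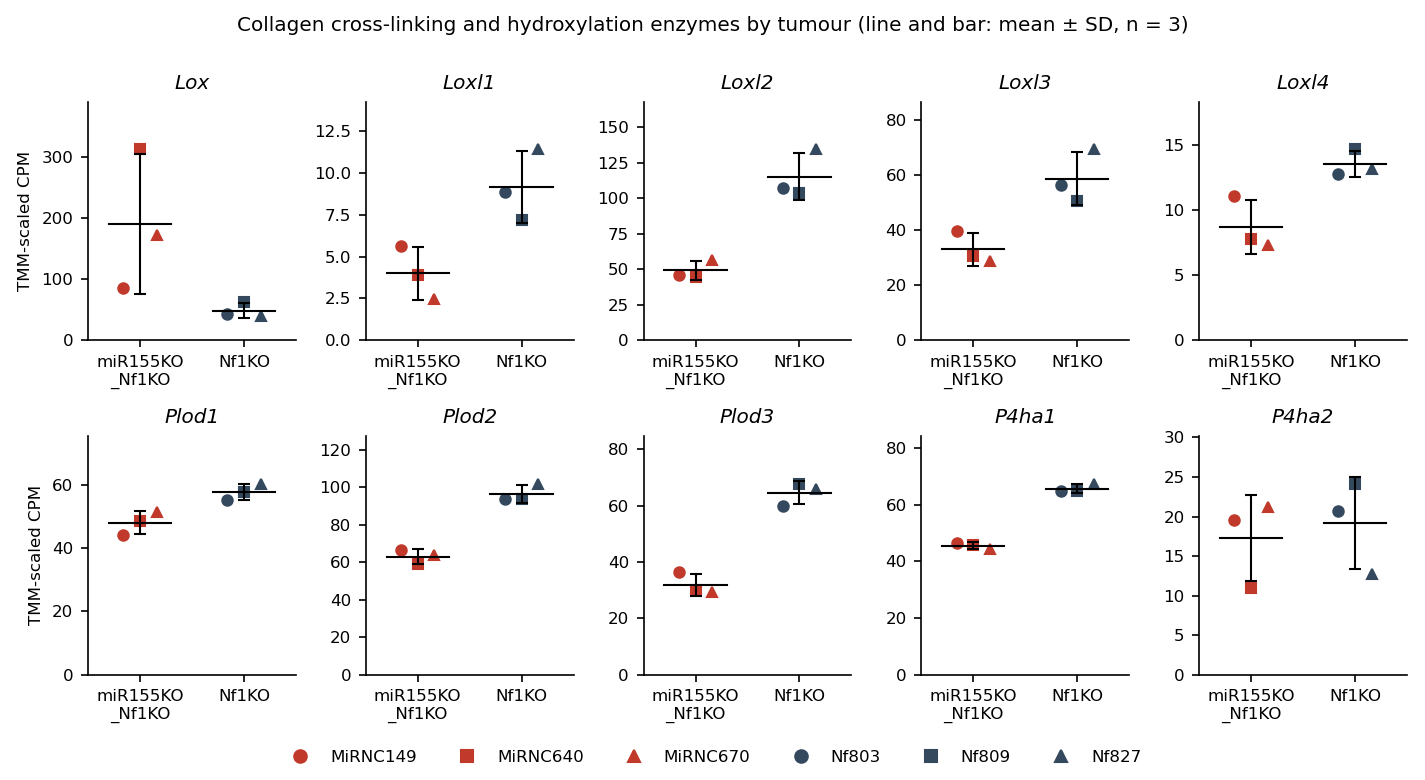
Level of each of the 10 enzyme genes in every tumour, in TMM-scaled CPM (vertical axis from 0), with miR155KO_Nf1KO left of Nf1KO and a line and bar for the mean and SD of 3 tumours. Lox is higher in all 3 miR155KO_Nf1KO tumours, P4ha2 overlaps between groups, and the other 8 genes are lower without overlap.

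Lox lies on chromosome 18. It had 85.8, 313 and 172 CPM in MiRNC149, MiRNC640 and MiRNC670, against 43.0, 63.3 and 40.8 CPM in Nf803, Nf809 and Nf827. The groups did not overlap, but MiRNC149 stood nearer to Nf809 than to MiRNC640. The log2 fold change was 1.96 (SE 0.45), which is 3.88-fold, and Lox was the most uneven member within miR155KO_Nf1KO, where its highest tumour was 3.65 times its lowest. Within Nf1KO the same ratio was 1.55, below those of P4ha2 (1.89) and Loxl1 (1.59).

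Loxl2, which cross-links basement membrane collagen IV among other substrates (chr14:69609068-69695834, plus strand, GRCm38), had 46.0, 45.0 and 56.8 CPM in MiRNC149, MiRNC640 and MiRNC670, against 107, 104 and 134 CPM in Nf803, Nf809 and Nf827. Every miR155KO_Nf1KO tumour was well below every Nf1KO tumour. The log2 fold change was -1.23 (SE 0.16), a mean level of 42.7% of that in Nf1KO, and the spread was small in both groups (coefficient of variation 13.3% in miR155KO_Nf1KO and 14.5% in Nf1KO). An antisense transcript shares 301 exon bases with Loxl2, and since the strand setting of the counts is not given, reads of such partners cannot be told apart from reads of the gene.

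Loxl1, which in mice is needed to renew elastic fibres (chr9:58287738-58313186, minus strand), was the scarcest oxidase, with 5.601, 3.92 and 2.46 CPM in MiRNC149, MiRNC640 and MiRNC670, against 8.86, 7.17 and 11.4 CPM in Nf803, Nf809 and Nf827. Its groups did not overlap, although they came from only 87, 58 and 31 reads in miR155KO_Nf1KO and 122, 116 and 170 reads in Nf1KO. The log2 fold change of -1.19 was close to that of Loxl2, but its SE was 0.37.

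Loxl3, which in mice is needed for the palate and the spine (chr6:83034173-83052562, plus strand), had 39.9, 30.8 and 28.8 CPM in MiRNC149, MiRNC640 and MiRNC670, against 56.5, 50.6 and 69.4 CPM in Nf803, Nf809 and Nf827. All 3 miR155KO_Nf1KO tumours were lower, by -0.83 (SE 0.19) on the log2 scale. Its exons share 535 bases with Htra2, a protease gene on the other strand, which averaged 4.85 CPM in miR155KO_Nf1KO, against 5.61 CPM in Nf1KO. Loxl4, the remaining oxidase (chr19:42593982-42612813, minus strand), had 11.1, 7.77 and 7.29 CPM in miR155KO_Nf1KO and 12.8, 14.7 and 13.1 CPM in Nf1KO, in the same order of tumours, with a log2 fold change of -0.63 (SE 0.23). MiRNC149 was the highest miR155KO_Nf1KO tumour for Loxl1, Loxl3 and Loxl4 and the lowest for Lox.

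Counted per kilobase of merged exons, so that genes can be set against each other, the leading lysyl oxidase differed between groups. Lox took 45.5%, 78.4% and 65.2% of the family's level in MiRNC149, MiRNC640 and MiRNC670, against 19.2%, 27.0% and 15.5% in Nf803, Nf809 and Nf827. Loxl2 took 21.6%, 9.96% and 19.0% of it in the same miR155KO_Nf1KO tumours, against 42.4%, 39.2% and 45.2% in the Nf1KO tumours. Thus Lox was the leading oxidase in all 3 miR155KO_Nf1KO tumours and Loxl2 in all 3 Nf1KO tumours.

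The ratio of Lox to Loxl2 per kilobase was 2.11, 7.87 and 3.43 in MiRNC149, MiRNC640 and MiRNC670, against 0.454, 0.689 and 0.344 in Nf803, Nf809 and Nf827. The summed level of the 5 oxidases overlapped between groups, at 39.5, 83.6 and 55.3 CPM per kb in miR155KO_Nf1KO and 46.9, 49.1 and 55.1 CPM per kb in Nf1KO. Without Lox, the sum of Loxl1 to Loxl4 was 19.6 ± 1.75 CPM per kb in miR155KO_Nf1KO and 40.1 ± 5.66 CPM per kb in Nf1KO (SD, n = 3 each). The total of the family thus overlapped, as did the share of Loxl4 (6.66%, 2.21% and 3.13% in miR155KO_Nf1KO, 6.47%, 7.08% and 5.66% in Nf1KO), while the shares of Lox, Loxl1, Loxl2 and Loxl3 did not.

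**Figure D2:**
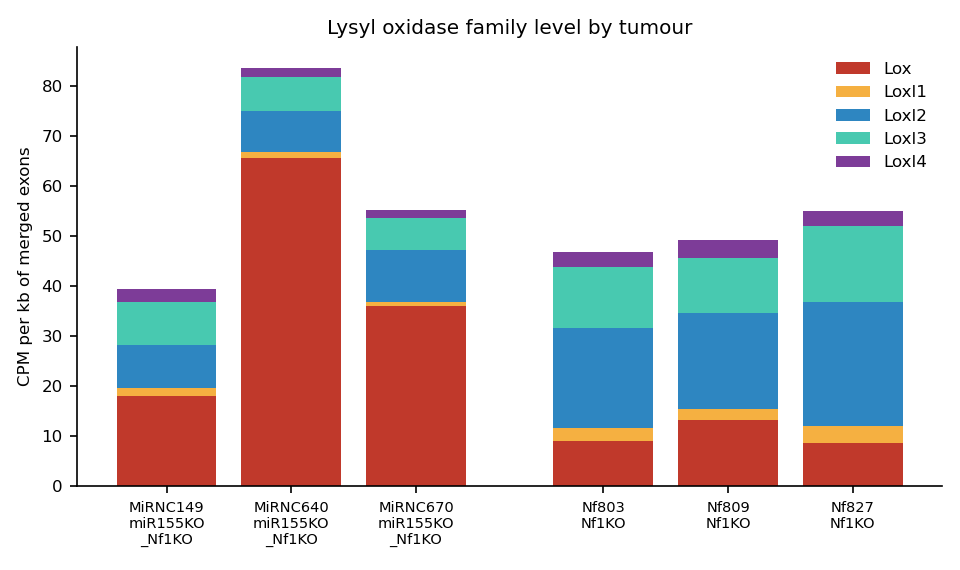
Stacked level of the 5 lysyl oxidase genes in each tumour, in CPM per kilobase of merged exons (vertical axis from 0), miR155KO_Nf1KO on the left and Nf1KO on the right. Lox makes up 45.5% to 78.4% of the stack in miR155KO_Nf1KO and 15.5% to 27.0% in Nf1KO, and the heights of the stacks overlap.

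The lysyl hydroxylases were lower together, by unequal amounts. Plod3, which also carries sugar transferase activity towards hydroxylysine (chr5:136987019-136996648, plus strand), had 36.5, 30.0 and 29.5 CPM in MiRNC149, MiRNC640 and MiRNC670, against 60.0, 67.9 and 65.9 CPM in Nf803, Nf809 and Nf827. Its level was 49.6% of that in Nf1KO, with a log2 fold change of -1.01 (SE 0.15). Its exons share 529 bases with Znhit1 on the other strand, a gene that averaged 13.5 CPM in miR155KO_Nf1KO, against 8.43 CPM in Nf1KO, so that the partner was higher where Plod3 was lower.

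Plod2, the enzyme for the lysines of collagen's telopeptides, where pyridinoline cross-links start (chr9:92542223-92608428, plus strand), had 66.5, 58.8 and 63.6 CPM in MiRNC149, MiRNC640 and MiRNC670, against 93.7, 93.5 and 102 CPM in Nf803, Nf809 and Nf827. The log2 fold change was -0.61 (SE 0.12), and replicates were close (coefficient of variation 6.22% in miR155KO_Nf1KO and 4.98% in Nf1KO). Plod1, which hydroxylates lysines of the helix (chr4:147909753-147936767, minus strand), had 44.2, 48.8 and 51.4 CPM in miR155KO_Nf1KO and 55.2, 57.7 and 60.5 CPM in Nf1KO, in the same order of tumours. Its groups were separate by a small margin, and its log2 fold change was -0.26 (SE 0.13), the smallest of the 3 hydroxylases.

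As shares of the lysyl hydroxylase level per kilobase, Plod1 made up 27.6% ± 2.86 in miR155KO_Nf1KO and 21.0% ± 0.112 in Nf1KO, Plod2 45.1% ± 0.924 and 43.9% ± 1.32, and Plod3 27.3% ± 2.42 and 35.1% ± 1.42 (SD, n = 3 each, miR155KO_Nf1KO before Nf1KO throughout). The share of Plod1 was higher, that of Plod3 lower, and that of Plod2 overlapped between groups. The summed level was 25.9 ± 1.11 CPM per kb in miR155KO_Nf1KO and 40.7 ± 1.81 CPM per kb in Nf1KO.

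The prolyl hydroxylase subunits differed from each other in how far their tumours spread. P4ha1, the main catalytic subunit in most cells (chr10:59323296-59373304, plus strand), had 46.6, 45.7 and 44.4 CPM in MiRNC149, MiRNC640 and MiRNC670, against 64.9, 64.7 and 67.4 CPM in Nf803, Nf809 and Nf827. It had the smallest observed spread of the members in both groups (coefficient of variation 2.49% in miR155KO_Nf1KO and 2.33% in Nf1KO). A log2 fold change of only -0.53 (SE 0.12) thus left a wide gap between groups. At its 560 to 1046 reads a tumour, counting alone is expected to spread values more than this. The closeness of its replicates is therefore no measure of how steady the gene is. P4ha2, the alternative subunit (chr11:54100095-54131665, plus strand), had 19.6, 11.01 and 21.2 CPM in miR155KO_Nf1KO and 20.7, 24.2 and 12.8 CPM in Nf1KO, in the same order of tumours. Its groups overlapped, MiRNC640 and Nf827 each standing low within its own group, and the log2 fold change was -0.16 (SE 0.33).

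**Figure D3:**
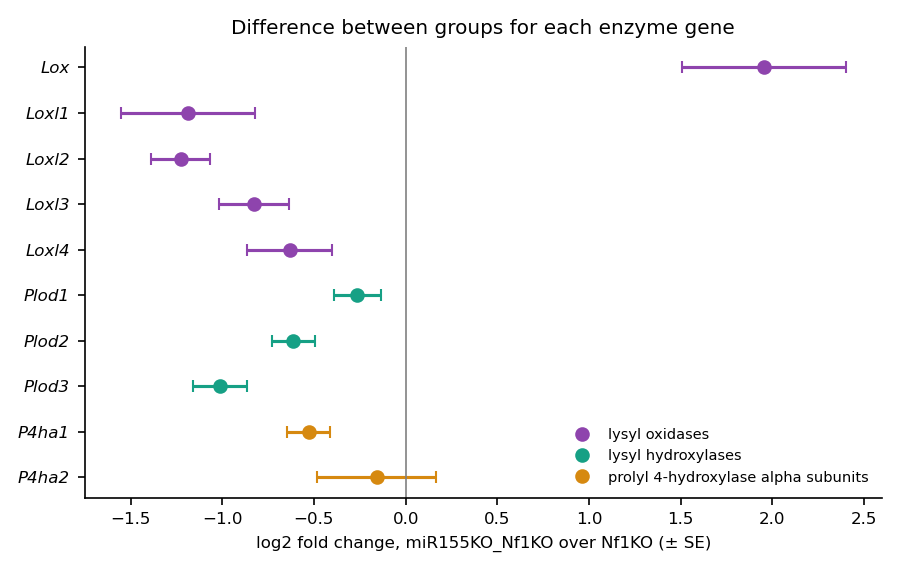
Log2 fold change of each enzyme gene, miR155KO_Nf1KO over Nf1KO (horizontal axis), with bars for 1 SE of the edgeR fit and a colour for each family. Lox stands alone on the positive side at 1.96, and the other 9 lie between -1.23 for Loxl2 and -0.16 for P4ha2.

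The promoters of P4ha1 and P4ha2 are shown because both genes, like Plod2 and Lox, are known targets of the hypoxia-inducible factors, whose core site reads ACGTG or GCGTG, and because their levels behaved unlike here. Each window runs from 250 bases before to 50 after the gene's start (RefSeq, GRCm38.p6), is printed 5′ to 3′ on the gene's strand, and has each core site, read on either strand, in capitals. P4ha1 lies at chr10:59323046-59323345 and P4ha2 at chr11:54100674-54100973, both on the plus strand. For P4ha1 the RefSeq start is the start of the GENCODE span given above. For P4ha2 it is not: the whole window lies inside the GENCODE span, which begins at chr11:54100095. The P4ha2 window is therefore that of an internal start by GENCODE, and bases before the GENCODE start are not shown.
P4ha1: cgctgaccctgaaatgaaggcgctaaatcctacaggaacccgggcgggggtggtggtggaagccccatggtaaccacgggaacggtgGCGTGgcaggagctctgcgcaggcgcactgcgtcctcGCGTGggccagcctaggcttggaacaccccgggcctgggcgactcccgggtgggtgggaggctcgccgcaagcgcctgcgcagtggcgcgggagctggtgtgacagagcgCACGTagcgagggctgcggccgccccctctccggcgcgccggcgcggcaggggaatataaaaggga
P4ha2: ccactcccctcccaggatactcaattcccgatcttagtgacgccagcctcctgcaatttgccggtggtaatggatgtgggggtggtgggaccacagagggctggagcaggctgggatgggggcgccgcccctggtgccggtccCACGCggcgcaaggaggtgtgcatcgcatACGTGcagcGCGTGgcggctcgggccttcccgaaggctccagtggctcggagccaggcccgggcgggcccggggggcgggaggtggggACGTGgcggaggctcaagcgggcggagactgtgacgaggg
P4ha1 held 3 such core sites, 1 of them ACGTG, and P4ha2 held 4, 2 of them ACGTG. The letters are common: either core was in 58.4% of 14799 promoter windows of tested genes, and ACGTG in 23.8%. Of the members, 5 had a promoter window in the table used, and a match is a description of letters, not evidence of binding.

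Set against each other per kilobase, the order of the 10 genes changed mainly at the top. In miR155KO_Nf1KO, Lox led at 39.8 ± 24.0 CPM per kb, followed by Plod2 (11.7 ± 0.726), P4ha1 (11.1 ± 0.276) and Loxl2 (9.11 ± 1.21). Loxl3, Plod1 and Plod3 came next, between 7.08 and 7.20, then P4ha2 (2.76 ± 0.874), Loxl4 (2.07 ± 0.489) and Loxl1 (1.21 ± 0.478). In that group the tumour values overlapped between Plod2 and P4ha1, from Loxl2 through Loxl3 and Plod1 to Plod3 for each pair of neighbours, and between P4ha2 and Loxl4.

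In Nf1KO, Loxl2 led at 21.3 ± 3.09 CPM per kb, followed by Plod2 (17.9 ± 0.891), P4ha1 (15.96 ± 0.372), Plod3 (14.3 ± 0.912) and Loxl3 (12.8 ± 2.09). Lox was sixth, at 10.3 ± 2.59, followed by Plod1 (8.54 ± 0.392), Loxl4 (3.21 ± 0.237), P4ha2 (3.08 ± 0.935) and Loxl1 (2.77 ± 0.643). Neighbours whose tumour values overlapped were Plod3 and Loxl3, Loxl3 and Lox, Lox and Plod1, Loxl4 and P4ha2, and P4ha2 and Loxl1. With the length of the longest transcript in place of merged exons, Plod2 (26.3 CPM per kb) came before Loxl2 (21.7) in Nf1KO, while Lox still led in miR155KO_Nf1KO. Lower ranks shifted as well. In miR155KO_Nf1KO, Plod1 went from rank 6 to 3 and Loxl2 from rank 4 to 6, among other shifts. In Nf1KO, Lox went from rank 6 to 7, behind Plod1.

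The members did not vary as one block within groups. Over the 45 pairs of members, the correlation of deviations from the group means over the 6 tumours had a median of 0.07, and 23 pairs were positive. Lox correlated positively with 1 of the 9 others, Plod1 (0.52), and most negatively with Plod2 (-0.85). Plod1 was positive with 2 of 9, Loxl2 (0.72) and Lox, and P4ha2 with 3 of 9. Among the other members Loxl4 went with Plod3 (0.95) and Loxl1 with P4ha1 (0.95). The deviations of P4ha1 ran only from -0.038 to 0.038 on the log2 scale, within what counting alone would give. Its correlations therefore say little. These are descriptions over few tumours that share library and depth effects.

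The tumours also differed in sex, read from Xist and Y-linked counts: MiRNC640, MiRNC670 and Nf809 were male, and MiRNC149, Nf803 and Nf827 were female. Nf1KO thus had 1 male and miR155KO_Nf1KO 1 female, so every value by sex rests on a single tumour in 1 group and has no replicate check there. Lox was higher in the male tumours of both groups. Among males it was at 243 CPM in miR155KO_Nf1KO (mean of 2) and 63.3 CPM in Nf1KO (1 tumour), 3.83-fold, and among females at 85.8 CPM in miR155KO_Nf1KO (1 tumour) and 41.9 CPM in Nf1KO (mean of 2), 2.05-fold. With sex as a covariate, the log2 fold change of Lox between groups was 1.49, beside 1.96 without it. The difference of male over female, a comparison that did not enter the choice of members but was added after the data were seen, was 1.05 on the log2 scale for Lox (SE 0.31) and did not pass (adjusted p = 0.507, unadjusted p = 0.0133, edgeR quasi-likelihood test with group as a covariate). None of the 10 members was called by sex, where 0.032% of all genes were (5 of 15604, and 1134 at an unadjusted p under 0.05). Loxl2 was at 48.9% of Nf1KO among males and 38.0% among females, and P4ha1 at 69.6% and 70.5%. P4ha2 was at 66.5% among males and 117% among females, with opposite directions whose difference was not tested.

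Among 13 further genes of collagen modification in the endoplasmic reticulum, 3 fell and 0 rose at an adjusted p under 0.05. Of the 13, 11 had a negative log2 fold change, most of them short of the threshold, and the median was -0.58, beside 0.01 over all genes. For this and every list below, the shares over all tested genes were 5.22% called higher and 4.74% called lower. The lists were chosen with earlier results of these data known. Serpinh1, the collagen chaperone HSP47, had 68.6, 85.5 and 63.1 CPM in MiRNC149, MiRNC640 and MiRNC670, against 126, 140.3 and 158 CPM in Nf803, Nf809 and Nf827 (log2 fold change -0.97, SE 0.16, adjusted p = 0.0236, edgeR quasi-likelihood test). P4hb, protein disulfide isomerase, which is the partner of P4ha1 and P4ha2 in the prolyl hydroxylase tetramer, fell to 111 ± 0.588 CPM in miR155KO_Nf1KO, against 167 ± 21.1 CPM in Nf1KO (log2 fold change -0.59, SE 0.13, adjusted p = 0.0339). Its fall was close to that of P4ha1. Colgalt1, which adds galactose to hydroxylysine, fell by 0.58 on the log2 scale (SE 0.14, adjusted p = 0.0409). P4ha3, the remaining alpha subunit, averaged 125 ± 32.2 CPM in miR155KO_Nf1KO, against 126 ± 27.2 CPM in Nf1KO (log2 fold change 0.00, SE 0.23), above P4ha1 and P4ha2 in CPM. P4ha3 is named after its value was seen.

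Enzymes that trim procollagen moved in both directions. Of 7 tested genes, 3 fell and 1 rose, with a median log2 fold change of -0.82. Bmp1, a procollagen C-proteinase that also releases active Lox from its precursor, had 59.0, 39.7 and 44.5 CPM in MiRNC149, MiRNC640 and MiRNC670, against 99.6, 108 and 100.1 CPM in Nf803, Nf809 and Nf827 (log2 fold change -1.10, SE 0.17, adjusted p = 0.0213, edgeR quasi-likelihood test). Among miR155KO_Nf1KO tumours Bmp1 was lowest in MiRNC640, where Lox was highest, and among Nf1KO tumours it was highest in Nf809, where Lox was also highest. Tll1, a related proteinase, rose to 18.4 ± 6.42 CPM in miR155KO_Nf1KO, against 6.60 ± 1.42 CPM in Nf1KO (log2 fold change 1.48, SE 0.33, adjusted p = 0.0368). Pcolce, which speeds C-propeptide removal, and Adamts2, an N-proteinase, fell by 1.04 (SE 0.19) and 1.16 (SE 0.21) on the log2 scale, with adjusted p of 0.0259 for each by the same test.

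Of 11 fibrillar collagen chains, the main substrates, 5 fell and 1 rose, 7 had a negative and 4 a positive log2 fold change, and the median was -0.73. Col5a2, a chain of the collagen that sets fibril width, fell to 243 ± 44.8 CPM in miR155KO_Nf1KO, against 527 ± 58.4 CPM in Nf1KO (log2 fold change -1.12, SE 0.16, adjusted p = 0.0202, edgeR quasi-likelihood test), and Col1a2 and Col2a1 fell by 0.85 (SE 0.12) and 1.33 (SE 0.25). Col24a1, a minor fibrillar chain, went the way of Lox, with 63.9, 163 and 135 CPM in MiRNC149, MiRNC640 and MiRNC670, against 22.4, 29.6 and 28.1 CPM in Nf803, Nf809 and Nf827 (log2 fold change 2.18, SE 0.34, adjusted p = 0.0216). Like Lox it was lowest in MiRNC149 among miR155KO_Nf1KO tumours and highest in MiRNC640.

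None of the 6 collagen IV chains, which Loxl2 can cross-link, was called by edgeR with TMM scaling (1 at an unadjusted p under 0.05). DESeq2, limma voom, and edgeR with upper quartile scaling or with total counts each called 1. Their median was -0.12. The log2 fold changes were -0.52 (SE 0.13) for Col4a2 and -0.25 (SE 0.15) for Col4a1, both smaller than the -1.23 of Loxl2.

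Elastic fibre genes were the lowest of these lists by median. Of 14 tested, 6 fell and 0 rose, and the median log2 fold change was -1.01. Fbn1, which encodes fibrillin-1 of microfibrils, fell to 422 ± 29.5 CPM in miR155KO_Nf1KO, against 798 ± 106 CPM in Nf1KO (log2 fold change -0.92, SE 0.13, adjusted p = 0.0201, edgeR quasi-likelihood test). Emilin1, a glycoprotein of elastic fibres, fell by 1.98 (SE 0.34), and the latent TGF-beta binding protein genes Ltbp1 and Ltbp3 fell by 1.57 (SE 0.19) and 0.68 (SE 0.14) on the log2 scale. Eln itself, which encodes the elastin that lysyl oxidases cross-link and is named after its value was seen, averaged 16.7 ± 10.5 CPM in miR155KO_Nf1KO, against 17.1 ± 1.53 CPM in Nf1KO (log2 fold change -0.04, SE 0.44).

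Genes induced by hypoxia, a known inducer of Lox, Plod2, P4ha1 and P4ha2, showed no common direction. Of 22 tested, 12 had a positive and 10 a negative log2 fold change, 2 rose and 0 fell, and the median was 0.14. Their summed level was 1862, 2945 and 2560 CPM in MiRNC149, MiRNC640 and MiRNC670. In Nf803, Nf809 and Nf827 it was 1816, 1907 and 1733 CPM, so the groups overlapped. Within each group the sum followed the order of Lox, a likeness that was not tested. Ndrg1, Ldha and Aldoa were the largest parts of the sum. Bnip3, a mitophagy receptor, rose to 56.1 ± 13.2 CPM in miR155KO_Nf1KO, against 24.4 ± 2.10 CPM in Nf1KO (log2 fold change 1.20, SE 0.21, adjusted p = 0.0247, edgeR quasi-likelihood test). Ndrg1, which myelinating Schwann cells also express, rose to 566 ± 76.1 CPM in miR155KO_Nf1KO, against 358 ± 34.6 CPM in Nf1KO (log2 fold change 0.66, SE 0.14, adjusted p = 0.0331). Adm and Car9, named after their values were seen, were lower without overlap but missed the threshold. Their log2 fold changes were -1.62 (SE 0.41) and -1.49 (SE 0.39), with adjusted p of 0.0513 and 0.0566 by the same test. Both were scarce, with group means between 1.15 and 5.11 CPM. Without MiRNC149, 5 of the list rose. DESeq2 called 2 of the list higher and 2 lower, and upper quartile scaling and total counts each called 2 higher and 1 lower.

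None of 9 tested genes for the supply of copper and ascorbate, the cofactors of these enzymes, was called by edgeR (2 at an unadjusted p under 0.05, 1 by DESeq2 and 0 by limma voom), and their median was -0.02. Atp7a, the pump that loads copper onto lysyl oxidases in the secretory pathway, averaged 163 ± 25.3 CPM in miR155KO_Nf1KO, against 238 ± 20.9 CPM in Nf1KO (log2 fold change -0.55, SE 0.15, adjusted p = 0.0603, edgeR quasi-likelihood test). Atp7b, the liver-type pump, was at 0.625 ± 0.0628 CPM and 1.90 ± 0.447 CPM in miR155KO_Nf1KO and Nf1KO (adjusted p = 0.0748).

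The calls in these lists depended on which tumours were included. Without tumour MiRNC670, Nf803 or Nf827, edgeR called 0 genes in the whole table (3240, 3335 and 3265 at an unadjusted p under 0.05), and therefore none in any list and no member. Without MiRNC640 it called 142 genes, among them 1 of the other collagen modification genes and 1 of the elastic fibre genes, and none in the other 5 lists. Without MiRNC149 it called 1 of the other collagen modification genes, and without Nf809 it called 1 of the copper and ascorbate genes.

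**Figure D4:**
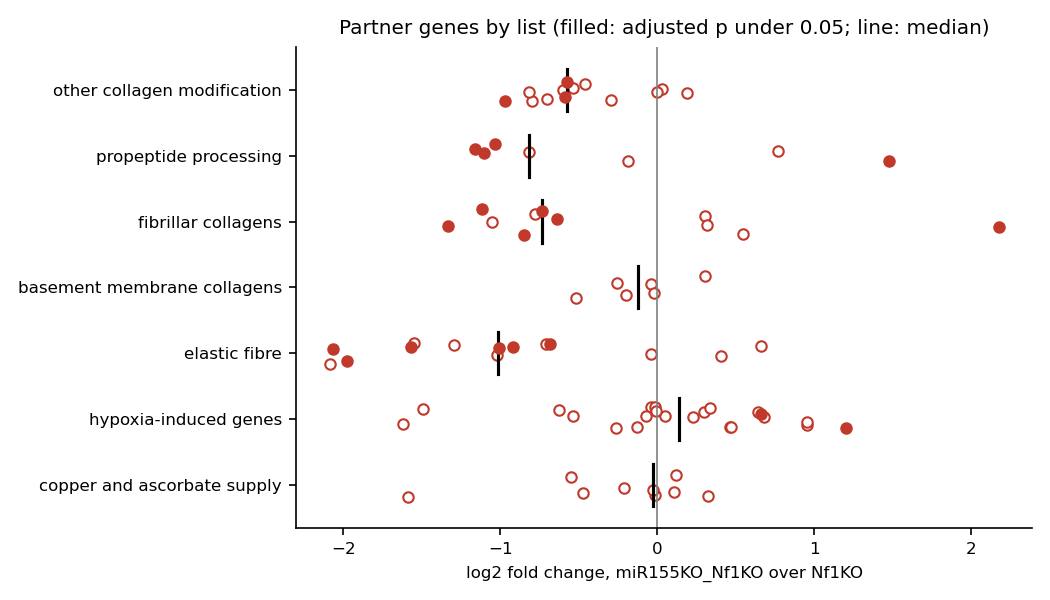
Log2 fold change, miR155KO_Nf1KO over Nf1KO (horizontal axis), of the tested genes of the 7 partner lists, with filled points for genes at an adjusted p under 0.05 and a line at each list's median. The medians run from -1.01 for elastic fibre genes to 0.14 for hypoxia-induced genes, and Col24a1 (2.18) and Tll1 (1.48) are the filled points furthest to the right.

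Markers of several cell types moved with the enzymes. In bulk tumours, fewer cells of a type and less RNA per cell cannot be told apart. The summed level of 10 markers of fibroblasts, which make these enzymes in connective tissue, was 2652 to 4261 CPM in miR155KO_Nf1KO and 6143 to 7386 CPM in Nf1KO, or 53.3% of Nf1KO, and 3 of the 10 fell. Most of this sum came from Dcn (2287 CPM in miR155KO_Nf1KO, 4058 CPM in Nf1KO) and Lum (705 and 1680 CPM in miR155KO_Nf1KO and Nf1KO), which encode the collagen-binding proteoglycans decorin and lumican, and 3 of the 10 had a positive log2 fold change. Beside the summed level, Loxl2 stood at 42.7% of its Nf1KO level, Loxl1 at 43.7%, Plod3 at 49.6%, Loxl3 at 56.3%, Loxl4 at 64.4%, Plod2 at 65.3%, P4ha1 at 69.4%, Plod1 at 83.3% and P4ha2 at 89.7%, and Lox at 388%. The summed level of 7 perineurial markers was 413 to 721 CPM in miR155KO_Nf1KO and 839 to 1581 CPM in Nf1KO, with 1 of the 7 called lower. That gene, Cldn1, a tight junction claudin, carried most of the difference, averaging 238 CPM in miR155KO_Nf1KO against 772 CPM in Nf1KO, while 3 of the 7 had a positive log2 fold change and the median was -0.01. Macrophage markers summed to 295 to 555 CPM in miR155KO_Nf1KO and 1035 to 2104 CPM in Nf1KO, with 6 of 10 called lower. Neuron markers summed to 5436 to 8593 CPM in miR155KO_Nf1KO and 1353 to 2618 CPM in Nf1KO, with 8 of 10 called higher, and markers of myelinating Schwann cells to 10710 to 21500 and 5852 to 6953 CPM in miR155KO_Nf1KO and Nf1KO, with 7 of 10 higher. The sums of the 10 general Schwann cell markers overlapped between groups, at 4623 to 5916 CPM in miR155KO_Nf1KO and 4229 to 4685 CPM in Nf1KO. Of the 10, 1 was called higher, 2 had a negative log2 fold change, and the median was 0.28. Scn7a was the largest part of the sums, averaging 2552 CPM in miR155KO_Nf1KO and 2472 CPM in Nf1KO. Sox10, S100b and Erbb3 were higher in miR155KO_Nf1KO without overlap. None of these markers was at 0 in all 6 tumours. Their part in the levels of the enzymes was not tested.

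Adipocyte and muscle markers followed single tumours. The 10 adipocyte markers summed to 225, 4492 and 1145 CPM in MiRNC149, MiRNC640 and MiRNC670, against 656, 199.5 and 646 CPM in Nf803, Nf809 and Nf827, and all 10 had a positive log2 fold change that missed the threshold (smallest adjusted p = 0.187, edgeR quasi-likelihood test). Within miR155KO_Nf1KO this was the order of Lox, whereas within Nf1KO the tumour with the most Lox, Nf809, had the least adipocyte RNA, and MiRNC149 had less of it than Nf803 and Nf827 but more Lox. Skeletal muscle markers were high in MiRNC670 (2376 CPM) and Nf809 (2852 CPM). Without both of these tumours the log2 fold change was -1.44 for Loxl2, beside -1.23 with all 6. Endothelial markers (185 to 340 CPM in miR155KO_Nf1KO, 203 to 284 CPM in Nf1KO) and smooth muscle and pericyte markers (231 to 464 and 359 to 441 CPM in miR155KO_Nf1KO and Nf1KO) overlapped between groups.

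**Figure D5:**
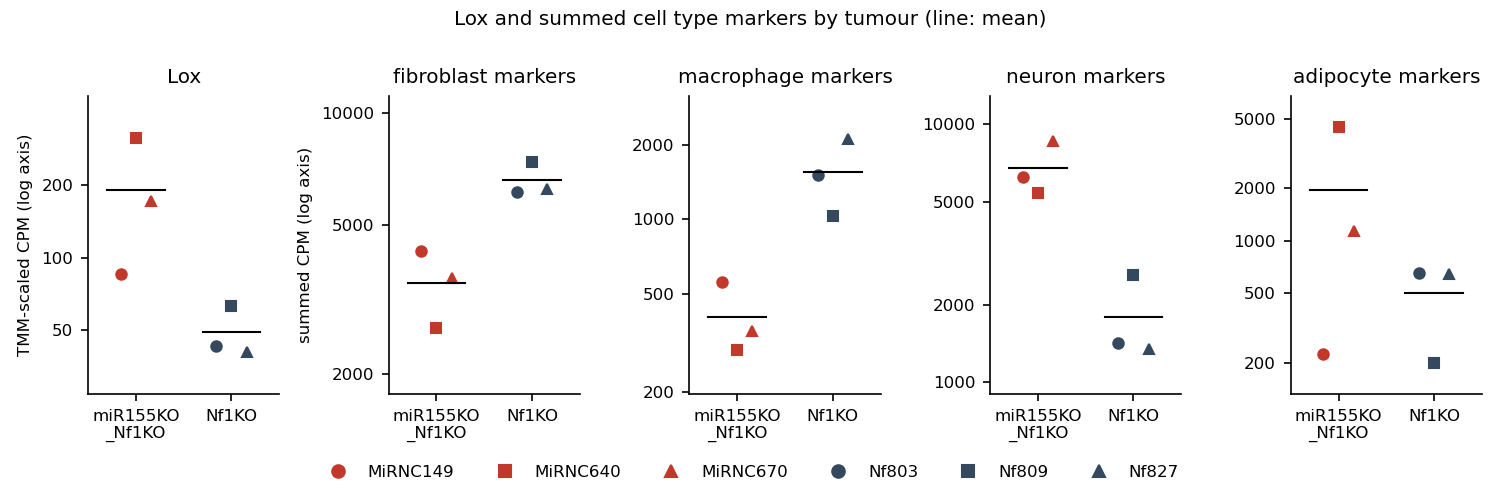
Level of Lox and summed levels of 4 marker lists in each tumour, in TMM-scaled CPM on log axes, miR155KO_Nf1KO left of Nf1KO, with a line at the mean of 3 tumours. MiRNC640 is highest for Lox (313 CPM) and for adipocyte markers (4492 CPM), while Nf809 is the highest Nf1KO tumour for Lox (63.3 CPM) and the lowest for adipocyte markers (199.5 CPM).

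The genes whose profile over the 6 tumours was most like that of Lox were Mlip, a lamin-interacting protein of muscle (Pearson r of log2 CPM 0.996), Atp5g3, subunit c of ATP synthase (0.994), and Bmx, a tyrosine kinase (0.993). Mlip had 61.3, 140 and 97.7 CPM in MiRNC149, MiRNC640 and MiRNC670, against 32.3, 42.7 and 31.3 CPM in Nf803, Nf809 and Nf827. For Loxl2 they were Klri2, a receptor gene of natural killer cells (0.998), Fbn1 (0.997) and Sash3, an adaptor of lymphocytes (0.996). Such values come from 6 points with the group means left in, so the difference between groups enters them. They are descriptions only. The choice was among the 15604 tested genes after members, predicted genes (Gm symbols) and genes with Rik symbols were left out. Klri2 had only 4, 3 and 6 reads in MiRNC149, MiRNC640 and MiRNC670, against 49, 53 and 129 reads in Nf803, Nf809 and Nf827.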

How the data were processed

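The authors' deposited table holds raw counts, whole numbers of reads for each gene symbol in each tumour. Per the submitters' processing notes the tools were HISAT2 2.0.5 and featureCounts 1.5.2, with build mm10. Per the labels' protocols an RNeasy Plus Micro kit and a Nextera XT kit were used. No source used here gives the annotation, the strand setting or how multimapping reads were treated.

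Groups came from the sample titles. The two-sided quasi-likelihood test of edgeR 4.0.16 (R 4.3.3) was run on genes kept by filterByExpr (at least 10 reads, total at least 15), with TMM scaling, and Benjamini-Hochberg adjustment over 15604 genes and a call at an adjusted p under 0.05. Standard errors come from the F statistic. CPM are counts per 1000000 of the TMM-scaled library. For correlations the prior count added before log2 was 2. The fit was also run on counts simulated from the mean levels and fitted dispersions of these tumours. That run checked only that fold changes were recovered, and says nothing of the calls reported here. Replicate tumours differed by at least 23.3 times Poisson variance, so none was counted as a repeat.

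Gene places, lengths and 3′ UTRs came from GENCODE M21 on GRCm38, the assembly mm10 names, and 10 of 10 members matched by symbol. The alternatives were other scalings, filters, DESeq2 1.42.0, limma 3.58.1 voom, sex as a covariate, transcript length and left-out tumours. The members and lists were chosen with earlier results of these data known. Genes named from a list are its called genes, or the 4 of smallest p where more were called, or the 2 of smallest p where none was. The likeness rule took the 3 genes of highest correlation after members, predicted genes (Gm symbols) and genes with Rik symbols were left out. Other genes are marked where named.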

Additional observations from a re-analysis of the deposited data

How the results depend on the processing

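The log2 fold changes of the 10 enzyme genes were recomputed under 15 alternatives. Of these 150 values, 147 moved by less than 1 within-group SD. The exceptions were P4ha1 with upper quartile scaling (-0.56) and without tumour Nf803 (-0.56), and Loxl2 without tumours MiRNC670 and Nf809 (-1.44). Lox stayed positive in all 15 (1.39 to 2.32), P4ha2 was positive in 2, and the other 8 stayed negative. In the 9 genes whose groups did not overlap, leaving out tumours could hardly change the sign. The members were also taken on this comparison, so these signs are no independent check. Of the 20 group levels per kilobase, 9 moved by more than 1 SD with the longest transcript's length. Of 120 counts of calls, 41 moved by more than 1.5 times, and the cause was not tested. DESeq2 called 2918 genes in all, 6 of the other collagen modification list, 11 of the elastic fibre list, 4 hypoxia genes, 1 collagen IV chain and 1 copper or ascorbate gene. One collagen IV chain (1) was also called with upper quartile scaling, total counts and limma voom. With sex as a covariate, 1 gene of other collagen modification and 1 hypoxia gene were called. Without tumours MiRNC670 and Nf809, 0 genes of other collagen modification, 2 of propeptide processing and 0 hypoxia genes were called. When each tumour was left out in turn, the counts ran from 0 to 2242 over all genes, from 0 to 4 for other collagen modification, 0 to 4 for propeptide processing, 0 to 7 for fibrillar collagens, 0 to 7 for elastic fibres, 0 to 5 for hypoxia genes and 0 to 1 for copper and ascorbate supply. No paired analysis was possible because the tumour numbers are not shared between the groups. Depth limits Loxl1 most, at 31 to 170 reads a tumour.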
